A study of Mus musculus with 12 samples.

Results

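The genes described here are 10 genes known as marks of dentate granule neurons, the principal excitatory cells of the dentate gyrus: Prox1, Calb1, Dsp, C1ql2, C1ql3, Tdo2, Plk5, Stxbp6, Trpc6 and Npnt. They were chosen by name, with earlier results of these data known, and all 10 were found among the 17990 genes of the study. The study sequenced polyA+ RNA of mouse brain tissue in 12 libraries, 3 in each of 4 groups. The DG KO and DG control libraries came from the dentate gyrus (DG), and the SVZ KO and SVZ control libraries from the subventricular zone (SVZ), the neurogenic strip beside the lateral ventricle, each label naming neural stem and progenitor cells and their surroundings. KO mice had the genotype hGFAP/+;Dpy30F/- and control mice hGFAP/+;Dpy30F/+. Every library therefore carries the hGFAP allele and 1 Dpy30F allele, and the other Dpy30 allele was "-" in KO and "+" in control. The labels do not say what hGFAP drives, which exons the F allele holds, how old the mice were, or whether animals were pooled. Nothing states that each library is a separate animal, so the replicate spread behind the p-values may be partly technical.

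In the adult dentate gyrus, new granule neurons are made from stem cells of the subgranular zone and pass through a progenitor and an immature stage. They mature into cells whose mossy fibre axons contact CA3 pyramidal cells. PROX1 is the homeodomain transcription factor that fixes their identity against that of CA3 neurons, and calbindin (Calb1) accumulates as they mature. DPY30, the product of the deleted gene, is a core subunit of the SET1/MLL complexes that methylate histone H3 at lysine 4, a mark of promoters rich in CG dinucleotides.

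Levels are FPKM (fragments scaled by transcript length and library size) summed over the transcripts of a gene, and libraries of a group are called a, b and c. Dpy30 was at 6.22, 6.89 and 5.68 FPKM in the DG KO libraries, always in the order a, b, c, against 8.43, 8.38 and 10.1 FPKM in DG control. In the SVZ it was at 8.83, 5.04 and 4.87 FPKM in KO, against 7.73, 8.25 and 9.43 FPKM in control. The SVZ library labelled KO a thus lay among the controls for the deleted gene, and the SVZ difference of each tested gene of the 10 is given with and without it. Markers of striatal projection neurons, a cell type of the tissue next to the SVZ, stood out in some DG libraries: the 10 genes of that list summed to 64.3, 351 and 725 FPKM in DG KO, against 75, 740 and 44.9 FPKM in DG control. The SVZ libraries had 449, 388 and 392.2 FPKM in KO and 510, 499 and 649 FPKM in control. DG KO b, DG KO c and DG control b therefore carried RNA of striatal markers at a level near that of the SVZ, and the DG difference of each tested gene of the 10 is also given without these 3 libraries, which leaves 1 KO library against 2 controls and takes the lone KO library to vary like the controls. Depth, read from the steps that single reads leave in low values, was 26.7 to 66.0 reads for each FPKM and kb of transcript.

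**Figure D1:**
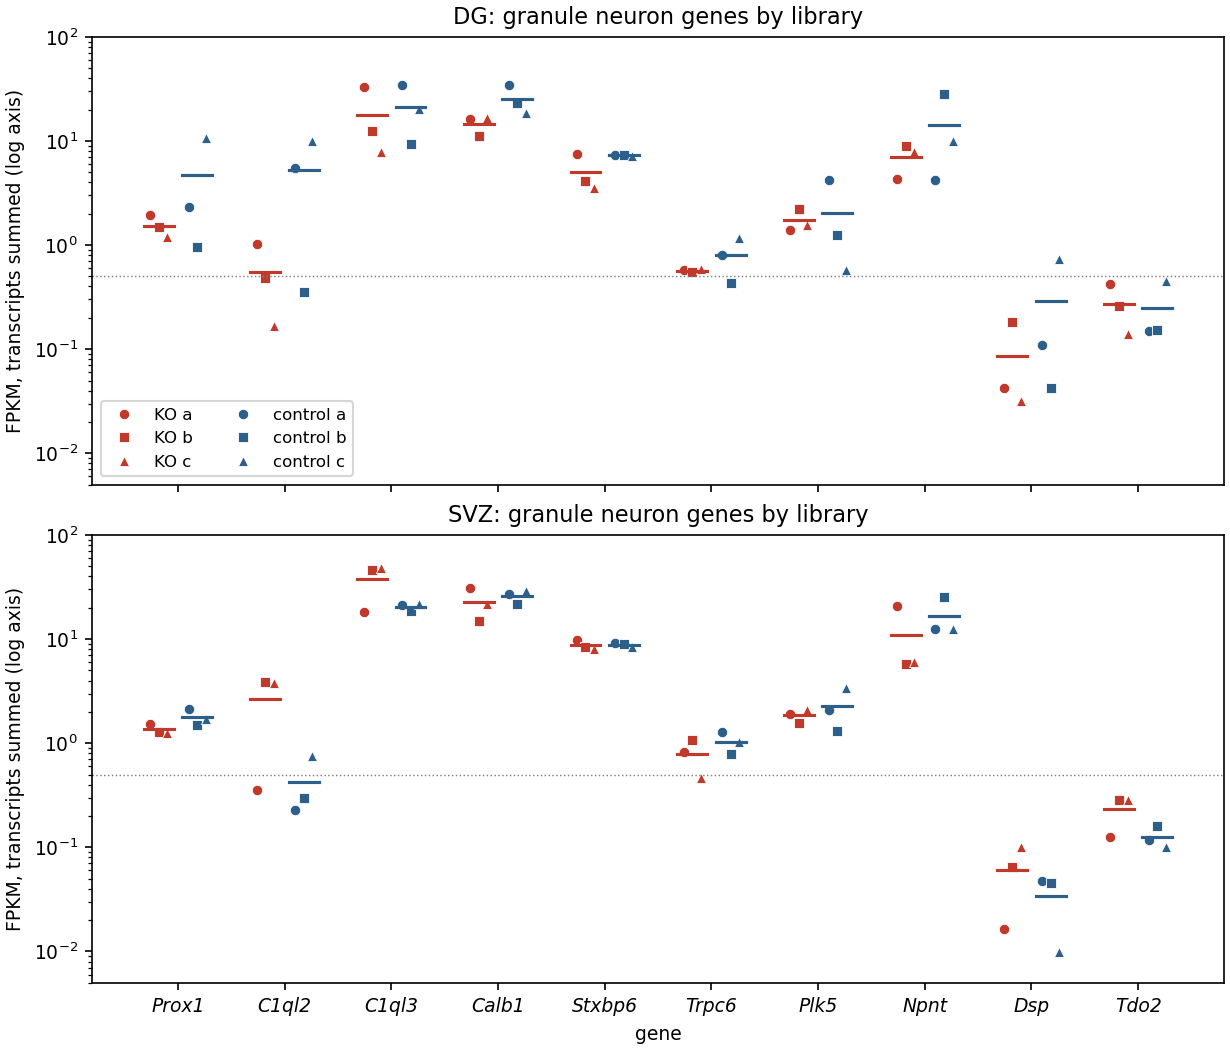
FPKM of each gene in every library, on a log axis, in the DG (upper panel) and the SVZ (lower panel); KO libraries are red and to the left of the blue control libraries, circles, squares and triangles are libraries a, b and c, bars are group means, and the dotted line is the mean of 0.5 FPKM that a gene needed to be tested. In the DG, Calb1 is the gene whose KO libraries (11.1 to 16.4 FPKM) all lie below its control libraries (18.5 to 34.6 FPKM), and Dsp and Tdo2 lie under the dotted line on average in both tissues.

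The labelled identity was checked against these values. Dsp and Tdo2, which textbook descriptions place in granule neurons, averaged under 0.5 FPKM in each tissue: Dsp ranged from 0.0315 to 0.183 FPKM in DG KO and from 0.0422 to 0.727 FPKM in DG control, and Tdo2 from 0.139 to 0.423 FPKM in DG KO and from 0.148 to 0.453 FPKM in DG control. Other genes were not particular to the DG libraries, since Calb1 averaged 25.8 FPKM in SVZ control and 25.4 FPKM in DG control, and Stxbp6 8.85 and 7.28 FPKM. These levels come from tables normalized separately and were not tested against each other. Among the DG libraries, Prox1 and C1ql2 were highest in DG control c, at 10.7 and 9.88 FPKM. Dsp (0.727 FPKM), Tdo2 (0.453 FPKM) and Trpc6 (1.18 FPKM) also had their highest DG value there. Calb1, C1ql3 and Plk5 peaked in DG control a, Npnt in DG control b and Stxbp6 in DG KO a. The 10 genes are therefore called here by their names, and a value in these tissue pieces cannot be read as one of granule neurons alone. In such bulk tissue, fewer granule neurons and less RNA per granule neuron cannot be told apart.

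In the DG, KO against control was tested with limma on log2(FPKM + 1) over the 15454 genes that averaged 0.5 FPKM or more, and 8 of the 10 genes were among them. With Benjamini-Hochberg adjustment at 0.05, 0 of the 8 passed, where 0.699% of all tested genes did (108 genes). At an unadjusted p under 0.05, 1 of the 8 passed (Calb1), beside 4092 of all genes. The 108 calls depended on having all 6 libraries: leaving out any 1 of them left 0 to 3, and leaving out the 3 high in striatal markers left 0. Of the 8 log2 differences 7 were negative, with a median of -0.57 against 0.09 for all tested genes. Markers of mature neurons in general had the same median, -0.57, with 11 of 12 negative and Eno2 and Grin1 past the threshold. Their sum was 2079, 1848 and 1580 FPKM in DG KO, against 2778, 2484 and 2833 FPKM in DG control, and its part in the granule gene values was not tested.

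Calb1 (chr4:15881264-15908064, GRCm38, plus strand) encodes calbindin, the calcium buffer of mature granule neurons. It was at 16.3, 11.1 and 16.4 FPKM in DG KO, against 34.6, 22.9 and 18.5 FPKM in DG control. Each KO library lay below each control library, an ordering held by 1 of the 8 tested genes and by 7.82% of all tested genes. The mean was 14.6 ± 3.04 FPKM in KO and 25.4 ± 8.30 FPKM in control (SD, n = 3 each), a ratio of 0.577. On the log2 scale the difference was -0.73 (SE 0.25), with an adjusted p of 0.13 by limma over all genes, and the exact two-sided permutation test gave p = 0.1, the smallest that 3 libraries against 3 allow. Without the 3 libraries high in striatal markers the difference was -0.61 (SE 0.38, adjusted p = 0.57). In the authors' deposited table, the main transcript Calb1-201 had p = 0.0337 and FDR = 0.305 for DG KO against control. Most of the signal was in Calb1-201, which held 91.7% to 99.7% of the gene's FPKM in DG KO and 86.2% to 99.0% in DG control. The remainder was Calb1-202, a transcript with a retained intron. In the SVZ, Calb1 was at 30.7, 15.0 and 21.8 FPKM in KO, against 26.9, 21.9 and 28.7 FPKM in control. The groups overlapped in the SVZ, with a log2 difference of -0.24 (SE 0.23, adjusted p = 0.67) and of -0.48 (SE 0.18, adjusted p = 0.15) without the library labelled KO a. The KO effect in the DG minus that in the SVZ was -0.49 (SE 0.37, adjusted p = 0.56).

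Of the other calcium buffers listed, 2 were tested in the DG and 0 passed by limma. Calb2, a mark of immature granule neurons and of interneurons, was at 18.8, 8.43 and 17.98 FPKM in DG KO, against 54.8, 10.1 and 39.4 FPKM in DG control. Pvalb, which marks fast-spiking interneurons, was at 2.70, 0.802 and 0.649 FPKM in DG KO, against 2.05, 9.11 and 4.63 FPKM in DG control. Both sets of groups overlapped. The log2 difference of Calb2 was -0.94 (SE 0.62), and -1.26 (SE 0.23, adjusted p = 0.33) without the 3 libraries high in striatal markers. That of Pvalb was -1.33 (SE 0.49), and -0.16 (SE 0.40, adjusted p = 0.88) without them.

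Prox1 (chr1:190118035-190170714, minus strand) was at 1.93, 1.498 and 1.19 FPKM in DG KO, against 2.30, 0.963 and 10.7 FPKM in DG control. DG control c stood apart and set the control mean; the other two controls lay on both sides of the KO libraries. The log2 difference was -0.75 (SE 0.61, adjusted p = 0.46), and it was -0.01 without DG control c. Without the 3 libraries high in striatal markers it was -1.09 (SE 0.79, adjusted p = 0.60). In the SVZ, Prox1 was at 1.54, 1.27 and 1.27 FPKM in KO, against 2.14, 1.51 and 1.71 FPKM in control, a log2 difference of -0.23 (SE 0.13, adjusted p = 0.46), and -0.29 (SE 0.13, adjusted p = 0.20) without the library labelled KO a. The KO effects in the DG and SVZ differed by -0.51 (SE 0.66, adjusted p = 0.74). Prox1os and Gm28172 lie on the opposite strand of Prox1, and as no source used here says whether strand was kept, their reads cannot be told apart. Prox1os was at 0.384, 0.101 and 0.293 FPKM in DG KO, against 0.965, 0.271 and 1.72 FPKM in DG control, with its highest value in DG control c as for Prox1.

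Regulators known from the granule lineage were taken from a list of 11 transcription factors. In the DG, 10 were tested, 0 passed by limma and 8 were negative, with a median of -0.30. The highest was Nfia, a nuclear factor I gene, at 0.09 (SE 0.22). Zbtb20, a factor needed for hippocampal neuron identity, was at 1.73, 1.71 and 2.80 FPKM in DG KO, against 3.29, 1.89 and 8.17 FPKM in DG control (log2 difference -0.67, SE 0.41, and -1.20, SE 0.49, adjusted p = 0.47, without the 3 libraries high in striatal markers). Its highest value was again in DG control c. In the SVZ 0 of 10 passed by limma with all libraries, with adjusted p = 0.37 for both Zbtb20 (log2 difference -0.66) and Neurod2, a neuronal differentiation factor (0.88). Without KO a, Zbtb20 fell (-0.72, adjusted p = 0.029) and Neurod2 rose (1.08, adjusted p = 0.0058), 2 of 10 in a fit in which 8.69% of all tested genes passed.

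C1ql2 and C1ql3 encode secreted C1q-like proteins that mossy fibres release and that cluster kainate receptors with neurexin 3 at their synapses. Of the 8 tested genes they had the largest differences between the KO effects of the tissues (-2.76 and -1.06 for DG minus SVZ), so their promoters are shown, with CG dinucleotides in capitals, from RefSeq on GRCm38.p6 (250 bases before to 50 bases after the start, 5′ to 3′ along the gene). C1ql2 is at chr1:120340332-120340631 on the plus strand, and C1ql3 at chr2:13010815-13011114 on the minus strand, whose RefSeq start lies inside the transcript used for the FPKM.
C1ql2: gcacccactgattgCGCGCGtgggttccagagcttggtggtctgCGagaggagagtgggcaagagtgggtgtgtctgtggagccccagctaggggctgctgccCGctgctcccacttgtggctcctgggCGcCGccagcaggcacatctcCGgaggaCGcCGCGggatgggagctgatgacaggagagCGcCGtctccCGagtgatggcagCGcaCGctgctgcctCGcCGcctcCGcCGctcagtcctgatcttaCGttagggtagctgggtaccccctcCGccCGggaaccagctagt
C1ql3: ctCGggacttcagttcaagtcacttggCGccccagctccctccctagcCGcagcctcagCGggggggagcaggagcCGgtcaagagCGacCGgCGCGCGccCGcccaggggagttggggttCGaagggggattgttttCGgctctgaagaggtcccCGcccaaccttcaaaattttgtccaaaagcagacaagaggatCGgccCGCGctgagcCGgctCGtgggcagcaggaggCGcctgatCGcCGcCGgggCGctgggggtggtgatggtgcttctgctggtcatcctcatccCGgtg
They hold 23 and 25 CG dinucleotides, where the median promoter holds 7 (quartiles 3 and 20). Such counts were not particular to C1ql2 and C1ql3 among the 10 genes. The windows of Npnt hold 26 and 32, those of Prox1 14 and 25, and that of Dsp 27. Plk5 has 21, Stxbp6 19, Trpc6 17 and Tdo2 4. Neither the C1ql2 nor the C1ql3 window holds CAGATG on either strand, the E-box form searched, which 17.2% of all promoters do.

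The C1ql2 gene (chr1:120340582-120343174, plus strand) was at 1.015, 0.485 and 0.168 FPKM in DG KO, against 5.53, 0.356 and 9.88 FPKM in DG control. DG control a and c stood far above the other 4 libraries, and DG control b lay within the KO range. These values rest on about 134, 47.0 and 17.98 reads in DG KO, and 451, 19.0 and 835 reads in DG control. The mean was 0.556 ± 0.428 FPKM in KO and 5.26 ± 4.77 FPKM in control (SD, n = 3 each), and the log2 difference was -1.60 (SE 0.73, adjusted p = 0.22). Leaving out 1 library moved it to -0.97 (adjusted p = 0.43) without DG control c and to -2.47 (adjusted p = 0.068) without DG control b. Without the 3 libraries high in striatal markers, among them DG control b, it was -2.06 (SE 0.35, adjusted p = 0.33). In the SVZ the same gene was at 0.352, 3.83 and 3.78 FPKM in KO, against 0.226, 0.297 and 0.750 FPKM in control. KO b and c were well above the controls, whereas the library labelled KO a was within them. The log2 difference was 1.16 (SE 0.45, adjusted p = 0.37) with that library and 1.77 (SE 0.17, adjusted p = 0.0044) without it. The DG effect minus the SVZ effect was -2.76 (SE 0.95, adjusted p = 0.20), and -3.37 (SE 0.89, adjusted p = 0.11) without the library labelled KO a. In the authors' deposited table the fold of control over KO was 9.45 in the DG (p = 0.066, FDR = 0.385) and -6.26 in the SVZ (p = 0.112, FDR = 0.560), where a negative fold means KO was higher.

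C1ql3 (chr2:13003457-13011806, minus strand) was at 32.7, 12.5 and 7.74 FPKM in DG KO, against 34.8, 9.26 and 20.2 FPKM in DG control. The groups overlapped widely, with a log2 difference of -0.32 (SE 0.61, adjusted p = 0.76), which was 0.29 (SE 0.34) without the 3 libraries high in striatal markers. Its sign also turned without DG control a (0.10) and without DG KO c (0.11). In the SVZ it was at 18.3, 46.1 and 48.4 FPKM in KO, against 21.0, 18.6 and 21.5 FPKM in control. Again KO b and c lay above every control and the library labelled KO a below them all. The log2 difference was 0.74 (SE 0.32, adjusted p = 0.40), and 1.18 (SE 0.11, adjusted p = 0.0042) without KO a. Genes on the opposite strand, Gm37824 and Gm37811, were at or below 0.773 FPKM in every library.

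Among the related ligands, C1ql1 fell in the DG, at 9.06, 8.39 and 9.71 FPKM in KO, against 13.3, 13.3 and 13.6 FPKM in control (log2 difference -0.52, adjusted p = 0.0499). It was the 1 of 4 tested ligands that passed by limma, beside 0.699% of all tested genes, and 3 of the 4 were negative. Its difference without the 3 libraries high in striatal markers was -0.52. Of the 9 genes for receptors and partners, 0 passed in the DG by limma and 7 were negative, the highest being the kainate receptor subunit Grik3 (log2 difference 0.19, SE 0.16). Grik4, a high-affinity kainate receptor subunit found at mossy fibre synapses, was at 3.66, 4.39 and 3.69 FPKM in DG KO, against 6.51, 4.57 and 12.8 FPKM in DG control (log2 difference -0.76, SE 0.31, adjusted p = 0.18, and -1.12, SE 0.39, adjusted p = 0.45, without the 3 libraries high in striatal markers). In the SVZ Grik4 was at 4.24, 8.87 and 6.51 FPKM in KO, against 4.32, 4.52 and 4.21 FPKM in control. With all libraries 0 of 9 receptors and partners and 0 of 4 ligands passed by limma, with Grik4 at 0.45 (adjusted p = 0.42) and the ligand Cbln2 at -0.46 (adjusted p = 0.39). Without KO a, 1 of 9 and 1 of 4 passed, Grik4 (0.69, adjusted p = 0.033) and Cbln2 (-0.68, adjusted p = 0.026), beside 8.69% of all tested genes.

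Over the 15159 genes tested in the SVZ, 0 of the 8 members passed with all 6 libraries by limma (1 at an unadjusted p under 0.05, beside 1914 of all genes), where 0.0066% of all genes passed (1 gene). No member had every KO library below every control library, an ordering that 7.78% of tested genes showed. Without the library labelled KO a, 3 of 8 passed, C1ql2 and C1ql3 upward and Npnt downward, where 8.69% of all genes passed (1317 genes). The median of the 8 was -0.17 with all libraries and -0.18 without KO a, against 0.03 and 0.06 for all tested genes. KO b and c differed from the other SVZ libraries in more than these genes. Wfs1, a marker of CA1 pyramidal cells, was at 14.3, 45.3 and 50.8 FPKM in the SVZ KO libraries, against 12.5, 20.1 and 23.0 FPKM in control, and Bok, Iyd and Wfs1 of 12 CA pyramidal markers rose without KO a. Myelin markers summed to 3784, 249 and 194 FPKM in SVZ KO, against 5806, 2910 and 5210 FPKM in control, and 10 of 10 fell without KO a. The part of these cell types in the SVZ values of the granule genes was not tested.

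**Figure D2:**
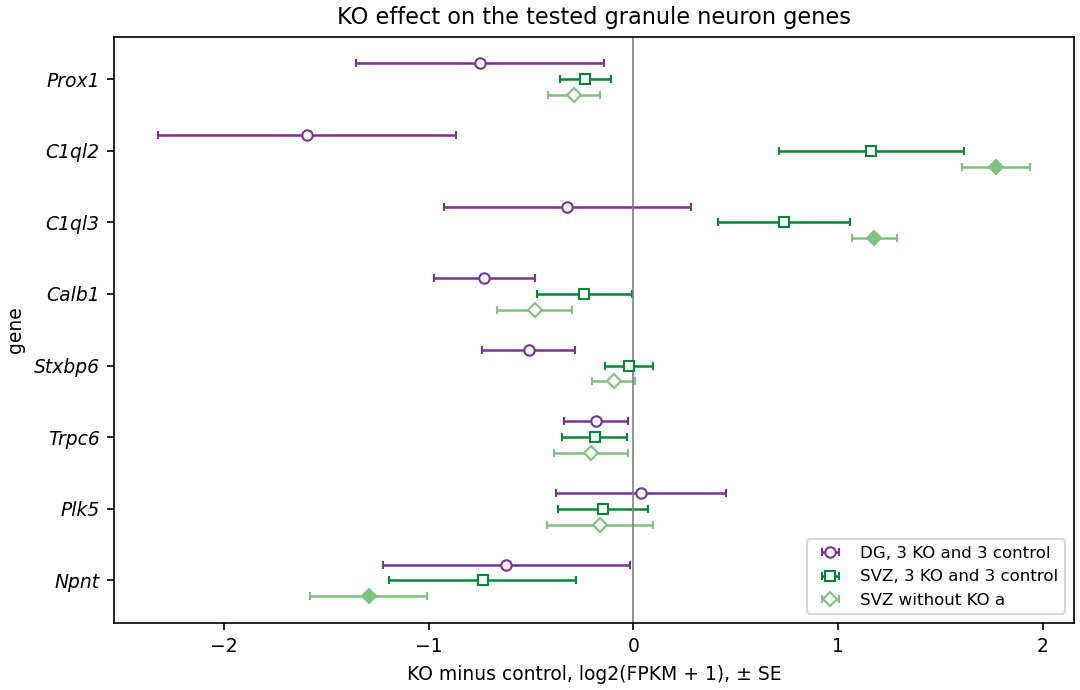
KO minus control on the log2(FPKM + 1) scale for the 8 tested genes, with bars of 1 SE: circles are the DG, squares the SVZ and diamonds the SVZ without the library labelled KO a; a filled symbol passed an adjusted p of 0.05. C1ql2 lies at -1.60 in the DG and 1.16 in the SVZ, and the 3 filled symbols are C1ql2, C1ql3 and Npnt in the SVZ without KO a.

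Stxbp6 encodes amisyn (an inhibitor of SNARE assembly in exocytosis), and Trpc6 a receptor-operated calcium channel. Stxbp6 (chr12:44852484-45074709, minus strand) was at 7.501, 4.11 and 3.51 FPKM in DG KO, against 7.37, 7.28 and 7.19 FPKM in DG control. The 3 controls were nearly equal, KO b and c were lower and KO a was above them all. The log2 difference was -0.51 (SE 0.23, adjusted p = 0.21), -0.79 (adjusted p = 0.054) without DG KO a, -0.33 (adjusted p = 0.44) without DG KO c, and 0.04 without the 3 libraries high in striatal markers, where KO a remained as the KO library. By transcript, Stxbp6-201 was at 4.43, 1.94 and 1.24 FPKM in DG KO, against 5.06, 4.28 and 4.14 FPKM in control (log2 difference -0.74, SE 0.31, adjusted p = 0.27). Stxbp6-202 was at 3.07, 2.17 and 2.28 FPKM in DG KO, against 2.31, 3.00 and 3.04 FPKM in control (-0.11, SE 0.15, adjusted p = 0.72). Neither passed by limma, and the 2 transcripts were not tested against each other. Stxbp6-201 made up 59.1%, 47.2% and 35.2% of the gene in DG KO a, b and c, against 68.7%, 58.8% and 57.7% in control. Among the SVZ controls alone this share was 46.7%, 60.6% and 74.2%. In the SVZ, Stxbp6 was at 9.77, 8.46 and 7.98 FPKM in KO, against 9.18, 8.99 and 8.39 FPKM in control (log2 difference -0.02, SE 0.12, and -0.10, SE 0.10, without KO a). The DG effect minus the SVZ effect was -0.49 (SE 0.26, adjusted p = 0.39). Without DG KO a it was -0.77 (adjusted p = 0.035), in a limma fit where 258 of 14922 tested genes passed, 1 of them among the 8. With all libraries, 0 of the 8 genes passed in this comparison of tissues by limma, where 0.0335% of all tested genes did (5 genes).

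**Figure D3:**
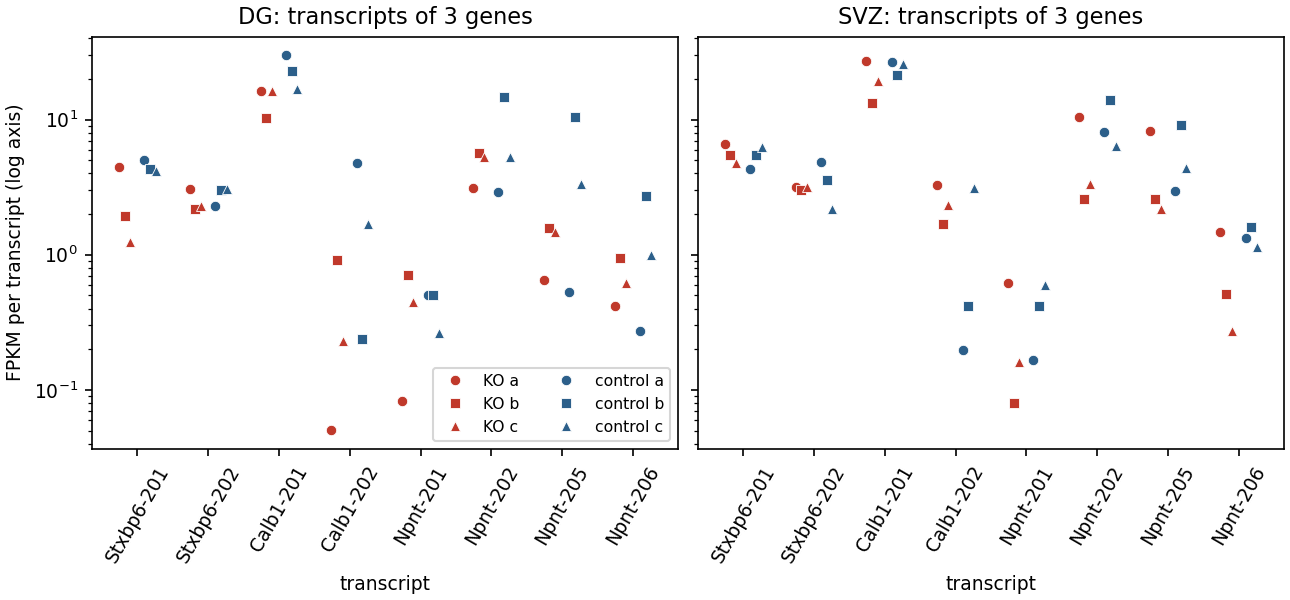
FPKM per transcript on a log axis in the DG (left) and SVZ (right), with KO red and left of control blue, and circles, squares and triangles for libraries a, b and c. Stxbp6-201 in DG KO b and c (1.94 and 1.24 FPKM) lies below its controls (4.14 to 5.06 FPKM). Stxbp6-202 in DG KO b and c (2.17 and 2.28 FPKM) lies just below its controls (2.31 to 3.04 FPKM). DG KO a is not below the controls for either transcript (4.43 and 3.07 FPKM).

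Trpc6 (chr9:8544142-8680741, plus strand) was at 0.576, 0.546 and 0.584 FPKM in DG KO, against 0.810, 0.429 and 1.18 FPKM in DG control. The KO libraries were almost alike, within the range of the controls, and the log2 difference was -0.18 (SE 0.16, adjusted p = 0.49). It was -0.04 without DG control c, -0.34 (adjusted p = 0.15) without DG control b, and -0.33 without the 3 libraries high in striatal markers. In the SVZ it was at 0.816, 1.08 and 0.468 FPKM in KO, against 1.28, 0.785 and 1.02 FPKM in control (-0.19, SE 0.16, and -0.21, SE 0.18, without KO a). Of 5 other TRPC channels tested, 0 passed in the DG by limma and 4 were negative, the highest being Trpc7 (0.09, SE 0.16). Trpc5, a channel of excitatory neurons, was at 1.23, 1.36 and 0.869 FPKM in DG KO, against 3.34, 1.43 and 3.35 FPKM in DG control (-0.74, SE 0.24, adjusted p = 0.12, and -0.96, SE 0.16, adjusted p = 0.33, without the 3 libraries high in striatal markers). In the SVZ its difference was -0.52 (adjusted p = 0.40) with all libraries. Without KO a it fell (-0.77, adjusted p = 0.047), as 1 of 5 channels beside 8.69% of all tested genes.

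Npnt encodes nephronectin, a matrix ligand of integrin α8β1 (chr3:132881745-132950291, minus strand). It was at 4.27, 8.88 and 7.86 FPKM in DG KO, against 4.24, 28.3 and 9.92 FPKM in DG control. DG control b was far above the others, and it was also the DG library highest in Mbp, a myelin gene (1435 FPKM, against 59.4 to 64.2 FPKM in the KO libraries and 135 and 431 FPKM in the other 2 controls). The log2 difference was -0.62 (SE 0.60, adjusted p = 0.54), and it was 0.03 without DG control b and -0.52 without the 3 libraries high in striatal markers. In the SVZ, Npnt was at 20.9, 5.78 and 5.97 FPKM in KO, against 12.5, 25.1 and 12.5 FPKM in control. KO b and c were lower than every control, and KO a was within them. The difference was -0.74 (SE 0.46, adjusted p = 0.50), and -1.29 (SE 0.29, adjusted p = 0.040) without KO a. Mbp was at 2211, 112 and 89.6 FPKM in the SVZ KO libraries, against 2923, 1679 and 3105 FPKM in control, low in the same 2 KO libraries, and its part in the Npnt values was not tested. In each of the 4 transcripts of Npnt, SVZ KO b and c lay below every control; Npnt-202, the most abundant of them, was at 10.5, 2.59 and 3.35 FPKM in SVZ KO, against 8.08, 14.1 and 6.38 FPKM in control. In the homologue and integrin receptor list, Egfl6 fell in the DG (0.112, 0.0915 and 0.207 FPKM in KO, against 0.888, 0.900 and 1.08 FPKM in control, adjusted p = 0.041 by limma). It was 1 of 4 tested, beside 0.699% of all tested genes. Its difference without the 3 libraries high in striatal markers was -0.83 (adjusted p = 0.35), against -0.78 with them.

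Plk5 encodes a member of the polo-like kinase family that is expressed in neurons (chr10:80356459-80365489, plus strand). It was at 1.41, 2.23 and 1.56 FPKM in DG KO, against 4.21, 1.25 and 0.581 FPKM in DG control. The controls spanned 7.25-fold and enclosed the KO libraries. The log2 difference was 0.04 (SE 0.42, adjusted p = 0.96), with a sign that turned under median centring (-0.04) and quantile normalization (-0.07) and was -0.25 without the 3 libraries high in striatal markers. In the SVZ it was at 1.91, 1.57 and 2.102 FPKM in KO, against 2.101, 1.32 and 3.40 FPKM in control (-0.15, SE 0.22, and -0.16, SE 0.26, without KO a). Of the other polo-like kinases, 0 of 4 passed in the DG by limma, from Plk2 (-0.06) to Plk1 (0.23).

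For Dsp, a desmosomal linker protein, and Tdo2, an enzyme of tryptophan breakdown, no test was made, since both were under a mean of 0.5 FPKM in each tissue. In SVZ libraries Dsp ranged from 0.0165 to 0.1003 FPKM in KO and from 0.00984 to 0.0475 FPKM in control. Tdo2 ranged from 0.125 to 0.286 FPKM in SVZ KO and from 0.102 to 0.161 FPKM in SVZ control. Their promoters differ in CG content: the RefSeq window of Tdo2 (chr3:81975679-81975978, minus strand) holds 4 CG dinucleotides, that of Dsp 27.

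A further list held 19 other genes named for granule neurons, and all were tested. In the DG 12 of 19 were negative, with a median of -0.16, and 1 passed, beside 0.699% of all tested genes. Grm2, a presynaptic metabotropic glutamate receptor, was at 2.20, 2.12 and 2.04 FPKM in KO, against 9.23, 9.70 and 13.5 FPKM in control (log2 difference -1.90, SE 0.14, adjusted p = 0.028). Its KO libraries were alike and lay far below the controls, and the difference was -1.93 (SE 0.25, adjusted p = 0.33) without the 3 libraries high in striatal markers. In the SVZ 0 of 19 passed with all libraries by limma. Without KO a, Lct rose and Dock10, Grm2 and Pcp4 fell, 4 of 19 in all, beside 8.69% of all tested genes. With all libraries the adjusted p of these 4 was 0.37 for Lct, 0.37 for Dock10, 0.60 for Grm2 and 0.37 for Pcp4. Lct, the lactase gene that marks granule cells of the dentate, was at 0.370, 2.25 and 1.62 FPKM in SVZ KO, against 0.198, 0.385 and 0.272 FPKM in control. Pcp4 was at 522, 298 and 295 FPKM in SVZ KO, against 614, 520 and 486 FPKM in control. In the DG it was at 195.5, 280 and 412 FPKM in KO, against 203, 533 and 160 FPKM in control. Its highest DG values were thus in the 3 libraries high in striatal markers. Of 10 striatal markers, 7 also fell in the SVZ without KO a, and their part in the Pcp4 values was not tested.

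Earlier stages of the lineage did not pass the test in the DG. Of 5 intermediate progenitor genes, 0 passed by limma, from Neurog2 (log2 difference -0.85) to Mfap4 (0.97), and of 12 genes of immature granule neurons and neuroblasts, 0 passed, with a median of 0.08, from Calb2 (-0.94) to Sox4 (0.55). Dcx, which marks migrating immature neurons, was at 10.4, 15.8 and 14.5 FPKM in DG KO, against 8.06, 7.89 and 11.3 FPKM in DG control, a log2 difference of 0.53 (SE 0.19, adjusted p = 0.14), and of 0.11 (SE 0.23) without the 3 libraries high in striatal markers.

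Lists of other cells and of related families gave the following in the DG. Aldoc, an astrocyte glycolytic enzyme, fell, as 1 of 9 astrocyte markers, beside 0.699% of all tested genes. It was at 68.9, 75.1 and 81.8 FPKM in DG KO, against 164, 189 and 205 FPKM in DG control. Its log2 difference was -1.29 (adjusted p = 0.028 by limma), and -1.40 without the 3 libraries high in striatal markers. The lists that follow held no gene past an adjusted p of 0.05 by limma. The lowest log2 difference among CA pyramidal markers was -1.85 (Fibcd1). Fibcd1 was at 4.85, 1.45 and 1.95 FPKM in DG KO, against 20.3, 3.03 and 22.2 FPKM in DG control. Its high values were thus in DG control a and c, as for C1ql2. Log2 differences ran from -1.33 (Pvalb) to -0.01 (Reln) for interneurons and from 0.39 (Tac1) to 1.33 (Adora2a) for striatal projection neurons. Myelin markers ran from -3.66 (Mobp) to 0.15 (Aspa), microglial ones from -0.49 (Tmem119) to 0.19 (C1qa) and endothelial ones from 0.03 (Flt1) to 0.25 (Pecam1). Fibroblast markers ran from 0.08 (Lum) to 1.25 (Mgp), choroid plexus ones from -0.52 (Ttr) to 0.59 (Aqp1) and blood ones from 0.99 (Hba-a2) to 1.37 (Hbb-bt). Among relatives of the 10 genes, desmosomal genes ran from -0.95 (Pkp2) to -0.05 (Pkp4), tryptophan enzymes from 0.11 (Kyat1) to 0.39 (Ido1) and syntaxin-binding proteins from -0.76 (Stxbp5l) to 0.25 (Stxbp4).

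**Figure D4:**
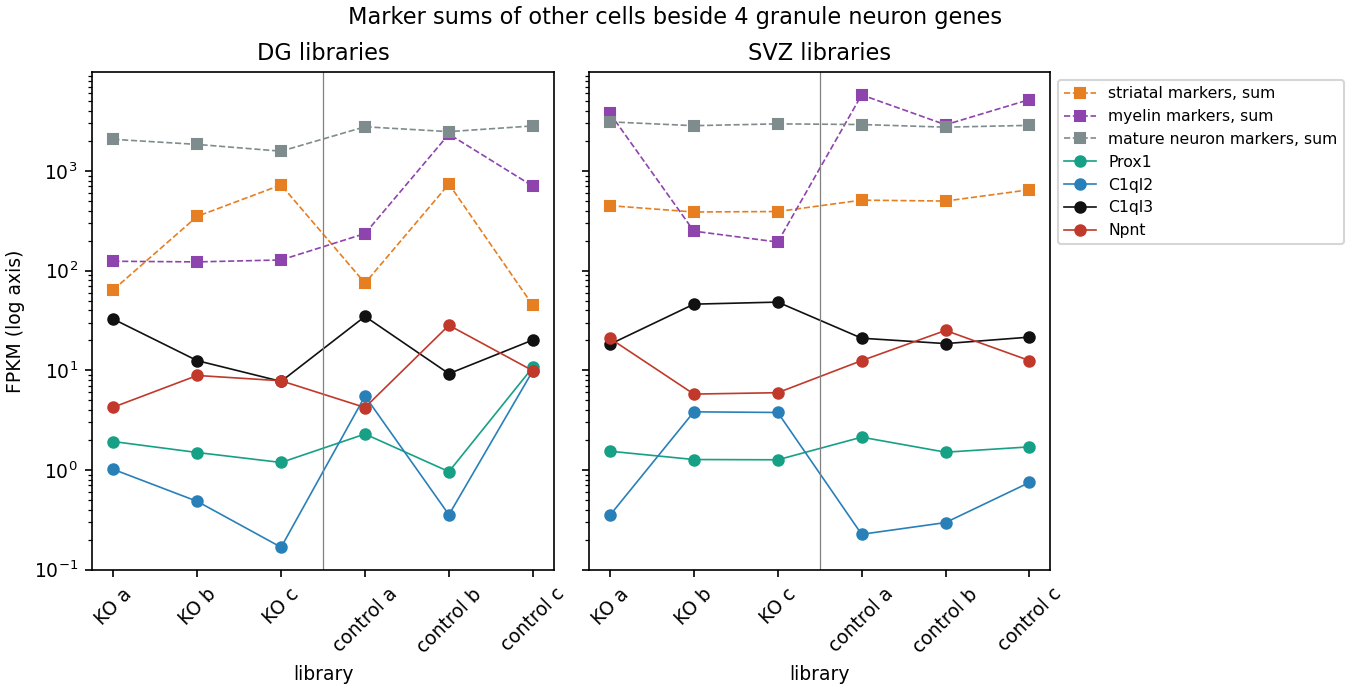
FPKM on a log axis in each library, KO libraries to the left of control, for the summed striatal, myelin and mature neuron markers (squares) and 4 genes (circles), in the DG (left) and SVZ (right). Striatal markers are high in DG KO b, DG KO c and DG control b (351 to 740 FPKM), where C1ql2 is at 0.485 FPKM or less, and C1ql2 and C1ql3 are high in SVZ KO b and c.

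Genes with a like course over the 6 DG libraries were looked for among 9107 genes averaging 5 FPKM or more, by the root mean square difference of centred log2 values from the mean course of the 8 tested genes. The 5 nearest were Dlgap1 and Scg2, a postsynaptic scaffold and a secretory granule protein (both 0.079), Pcdh1, a protocadherin (0.082), Fbxo2, an F-box protein (0.083), and Gabrb1, a GABA receptor subunit (0.084), where the median candidate lay at 0.417. Among the 8 genes themselves, Trpc6 lay nearest to the mean course (0.243) and Npnt furthest (0.975). Stxbp6 lay at 0.263 and Calb1 at 0.374. C1ql3 (0.599), Prox1 (0.628), Plk5 (0.639) and C1ql2 (0.878) lay, like Npnt, further from it than the median candidate. This distance depends on the size of a course as well as its shape, since values were centred and not scaled. The root mean square of the centred values was 1.23 for C1ql2 and 0.198 for Trpc6, against 0.372 for the mean course. C1ql2 was, like the mean course, highest in DG control c and lowest in DG KO c, whereas Npnt was highest in DG control b. A gene near the mean course need not resemble each of these genes. Dlgap1 was at 38.0, 31.9 and 28.1 FPKM in DG KO, against 51.4, 38.3 and 50.6 FPKM in DG control, with its lowest control value in control b.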

How the data were processed

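PolyA+ RNA of 12 mouse libraries was sequenced. Per the submitters' processing notes, CASAVA 1.8.4, TopHat2 2.1.0, Partek and GRCm38 (mm10) were used, with no settings given. The authors deposited FPKM per transcript with TMM scaling (trimmed mean of M-values) per the file names, which takes most genes as unchanged. Their comparison tables hold, per the file headers, p-values, an FDR, mean FPKM and a score, the signed fold of control over KO. Columns name a group and no replicate, so libraries were lettered in column order.

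Transcripts were summed per gene. Genes averaging at least 0.5 FPKM were tested on log2(FPKM + 1), which understates changes of low genes, with limma 3.58.1 in R 4.3.3 (trend), Benjamini-Hochberg adjusted at 0.05, and checked on simulated data. FPKM steps of 1 read gave depth; 57.0% to 63.4% of low values were whole reads to within 0.1, too few to recover counts, so no count model was fitted. All members were named. Of each other list, the rule named genes past the threshold or, where none passed, the highest and the lowest difference; it was applied to the DG, while of the SVZ only part of the genes it gives is printed. The highest difference of the CA pyramidal list is not reported here. Dcx, the antisense Prox1os and Mbp were chosen after their values were seen. Positions are from GENCODE on GRCm38. The members and the 25 lists were chosen with earlier results of these data known. Alternatives were other pseudocounts, filters, scalings, no trend, transcripts, and libraries left out; unused per-sample columns numbered 0.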

Additional observations from a re-analysis of the deposited data

How the results depend on the processing

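Leaving out 1 library at a time gave 0 to 3 calls in the DG against 108 with all libraries, 0 to 1317 in the SVZ against 1, and 0 to 258 for the difference between tissues against 5. Of the 8 tested genes, 0 passed in the DG under every alternative run, and 0 to 3 in the SVZ, the 3 being without KO a. For the difference between tissues 0 to 1 passed, the 1 being Stxbp6 without DG KO a. DG calls numbered 241 with a minimum of 2 FPKM, 38 without the trend and 0 without the 3 DG libraries high in striatal markers (1685 at an unadjusted p under 0.05), an alternative chosen after seeing the data. Calls for the difference between tissues numbered 2 with a pseudocount of 0.1 and 2 with 0.5, 13 with a minimum of 2 FPKM, 9 under median centring and 9 without the trend. Median centring moved the median of all DG genes to 0.01, against 0.09, and the split of DG calls to 32 higher and 99 lower, against 52 and 56; quantile normalization gave 43 and 86. Signs turned for Plk5 in the DG (-0.040 under median centring, -0.074 under quantile normalization, -0.25 without the 3 libraries), for C1ql3 (0.29) and Stxbp6 (0.038) in the DG without those 3, and for Trpc6 between tissues (-0.028 under median centring, -0.10 under quantile normalization). With 1 library left out, DG differences ran from -2.47 to -0.97 for C1ql2, -0.34 to -0.04 for Trpc6, -0.87 to 0.11 for C1ql3, -0.33 to 0.53 for Plk5 and -1.21 to 0.031 for Npnt. SVZ differences ran from -0.48 to 0.010 for Calb1, -0.37 to 0.091 for Plk5 and -0.095 to 0.035 for Stxbp6. Between tissues they ran from -1.07 to 0.22 for Prox1, -0.19 to 0.67 for Plk5, -0.15 to 0.15 for Trpc6 and -0.48 to 0.77 for Npnt. The causes were not tested. No paired analysis was possible because the columns carry no replicate numbers. Values of C1ql2, Dsp, Tdo2 and Trpc6 rest on few reads in some libraries, and 3 libraries a group limit every test.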
